A study of Mus musculus with 8 samples.

Results

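Natural killer (NK) cells were taken from the 4 libraries of total splenocytes of a mouse study that deletes Eif3e in activated B cells. A cell was counted as an NK cell when it had more than 100 genes, at most 10% of its unique molecular identifiers (UMIs, 1 per captured transcript) from mitochondrial genes, at most 1 UMI of Cd3d, Cd3e and Cd3g together, at most 1 UMI of Cd79a and Ms4a1 together, and UMIs of at least 2 of the genes Ncr1, Klrb1c, Gzma, Prf1 and Eomes, with at least 1 UMI of Ncr1 or Klrb1c. By this rule 641 of 42183 total splenocytes were NK cells, out of 83704 cells in all 8 libraries. The cKO mice were Eif3e fl/fl Cγ1Cre Rosa26-YFP LSL, so that Cre, which is made with the transcript of the immunoglobulin γ1 constant region, deletes Eif3e and turns on YFP in activated B cells. Controls were littermates from which YFP+ cells were sorted as well. The labels do not give their alleles, and the study names controls for lymphoid organs as Cγ1Cre Rosa26-YFP LSL without saying whether the same holds for these libraries. All mice were 2 months old and on the C57BL/6J background. Each library held live sorted cells pooled from the spleens of 2 to 3 mice, with 1 control and 1 cKO library in each of 2 batches, so p-values speak of 2 pools per group. Libraries are named by group and batch number (control total 1, cKO total 2).

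NK cells are lymphocytes that kill infected or transformed cells without rearranged antigen receptors. They weigh signals from activating receptors, many of which signal through the adaptors Tyrobp (DAP12) and Fcer1g, against signals from inhibitory receptors for MHC class I, in mice mainly the Ly49 family encoded by the Klra genes. In the spleen they mature from cells with surface CD27 to cells with surface CD11b, the product of Itgam, and both the killing granules and the Ly49 set change on the way. NK cells are not where the Cγ1Cre allele is meant to act, so the comparison of genotypes asks how these cells stand in a spleen whose activated B cells lack Eif3e.

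The 4 libraries held 192, 210, 139 and 100 NK cells, given here and further on with the controls of batches 1 and 2 first and the cKO of batches 1 and 2 after them. All 5 genes of the rule were detected in 388 of the 641 cells, 4 in 178, 3 in 43 and 2 in 32. Just outside the rule, 16 cells had Ncr1 or Klrb1c UMIs and no other of the 5 genes, 15 cells had 2 Cd3 UMIs where 60 cells inside had 1, and 23 cells had 2 UMIs of Cd79a and Ms4a1 where 145 cells inside had 1. Median UMIs per NK cell were 5955, 4502, 4546 and 4671, and the NK cells of a library summed to between 584214 and 1190701 UMIs. Levels below are CPM, the UMIs of a gene scaled to one common total of UMIs in every class and library. No barcode of an NK cell occurred in more than 1 library, while any pair of libraries shared 51 to 102 barcodes among all cells. A score against simulated doublets put 5, 6, 8 and 5 of the NK cells among the 8% of cells with the highest scores.

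NK markers that the rule did not use were high in these cells. Tyrobp stood at 1817, 2497, 2013 and 2152 CPM in NK cells and at 7.76 to 18.6 CPM in CD8 T cells of the same libraries. Klre1, a lectin receptor of the NK gene complex, stood at 1116 to 1442 CPM against 7.68 to 16.1 CPM, and Itga2, which encodes the NK surface marker CD49b, at 246 to 507 CPM against 0.754 to 4.17 CPM. Tbx21, the transcription factor T-bet, was present at 168 to 314 CPM. The 12 T cell markers summed to 555 to 928 CPM in NK cells and to 5343 to 6145 CPM in CD8 T cells, and most of what NK cells had came from the receptor constant regions Trbc1 (259.7 to 407 CPM) and Trbc2 (87.6 to 262 CPM), whereas the highest levels of Cd8a and Cd4 were 1.68 and 3.42 CPM. The 12 B cell markers summed to 1770, 1349, 1175 and 2735 CPM in NK cells and to over 36246 CPM in every library's B cells, and 70.6% of the Cd74 UMIs of cKO total 2 came from 1 cell. Xist was at 313 CPM in the NK cells of cKO total 1 and at 0 in the other 3, while Ddx3y was found in all 4. The pool of cKO total 1 thus differed from the other 3 in sex, and without it the ratio of NK shares described next was 0.494.

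NK cells made up a smaller share of total splenocytes in both cKO libraries than in both control libraries. The shares were 2.01% of 9566 cells in control total 1 (95% exact binomial interval 1.74 to 2.31) and 1.82% of 11559 cells in control total 2 (1.58 to 2.08). They were 1.33% of 10476 cells in cKO total 1 (1.12 to 1.56) and 0.945% of 10582 cells in cKO total 2 (0.77 to 1.15). These intervals cover counting error only. The group means were 1.91% ± 0.135 and 1.14% ± 0.27 (SD, n = 2 libraries each), a ratio of 0.594, and cKO minus control was −0.68 percentage points in batch 1 and −0.872 in batch 2. The groups did not overlap, but the two-sided exact permutation test gave p = 0.33, the smallest that 2 against 2 libraries allow. With the shares taken over cells outside the B cell gate, the values were 4.79%, 4.57%, 3.596% and 2.27%, so the order of the libraries was the same. CD8 T cells also took a smaller share in cKO, with 10.6%, 9.802%, 7.13% and 6.47%. NKT-like cells, which pass the NK rule but for 2 or more Cd3 UMIs, overlapped between groups at 0.554%, 0.571%, 0.439% and 0.586%. There were 3.62, 3.18, 3.02 and 1.61 NK cells per NKT-like cell. In sequenced cells, fewer NK cells and more cells of other kinds cannot be told apart.

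**Figure D1:**
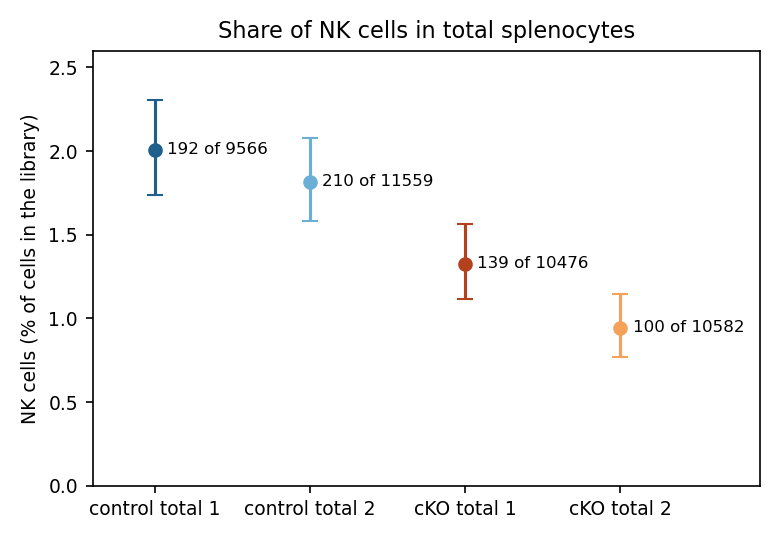
Share of NK cells among all cells of each total splenocyte library (y axis, percent), with the count of NK cells and of all cells beside each point and bars for the 95% exact binomial interval. Both cKO libraries, at 1.33% and 0.945%, lie below both control libraries, at 2.01% and 1.82%.

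The genes that chose the cells are given as levels only. Ncr1, the activating receptor NKp46, stood at 893, 1220.0, 922 and 1001 CPM, and Klrb1c, the receptor NK1.1, at 1213, 1656, 1265 and 1354 CPM. Both were highest in control total 2, and the groups overlapped. Gzma, a granule protease, stood at 4482, 5216, 5539 and 9471 CPM and was highest in cKO total 2. Prf1, the pore-forming protein perforin, stood at 634, 807, 748 and 899 CPM, and Eomes, a transcription factor of NK cells, at 315, 378, 337 and 440 CPM. Among B cells of the same libraries, which should lack them, these 5 genes were detected in 0.405% to 3.24% of cells at median depths of 4647 to 6281 UMIs.

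Eif3e, the gene targeted in B cells (chromosome 15, 43250058 to 43282719, minus strand, GRCm38), stood at 192, 256, 172 and 236 CPM in NK cells. Within each batch the 2 genotypes lay closer to each other than the batches did, and no change was called by edgeR's quasi-likelihood test (log2 fold change of cKO over control −0.10 ± 0.36 SE, Benjamini-Hochberg adjusted p = 1). Reads at the 3′ end of Eif3e count a transcript whether or not an exon was deleted elsewhere in it.

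Comparing cKO with control NK cells gene by gene, 1 of 7877 genes tested was called at an adjusted p of 0.05, or 0.0127% of genes, and that gene was Klra5. At an unadjusted p of 0.05 there were 69 genes, 25 higher and 44 lower in cKO. That is a smaller share of genes than the 0.05 that uniform p-values would give. With the batch as a block, described below, there were 442. The few calls of this fit therefore do not show that little changed. Klra5 encodes the Ly49 receptor Ly49E and lies on chromosome 6 from 129898996 to 129917650 on the minus strand (GRCm38), in the Ly49 cluster. Its level was 42.8 and 36.2 CPM in the control libraries and 1.48 and 0 CPM in the cKO libraries. The log2 fold change was −3.74 ± 0.52 (SE), with an adjusted p of 0.0272 by edgeR's quasi-likelihood test. The signal came from few cells: 6 of 192 and 5 of 210 control cells and 1 of 139 and 0 of 100 cKO cells had a UMI, and a single cell held 39.2% of the 51 UMIs of control total 1 and 38.9% of the 36 UMIs of control total 2. As shares of cells these are 3.13% (exact 95% interval 1.16 to 6.68), 2.38% (0.778 to 5.47), 0.719% (0.0182 to 3.94) and 0% (0 to 3.62), and all 4 intervals overlap. Summed over libraries, the ratio of cKO to control was 0.01997 with a counting interval of 0.0005 to 0.114, which treats UMIs of 1 cell as independent. Of the 11 control cells, 9 also had a UMI of Trac, Trbc1 or Trbc2 and 3 had 1 Cd3 UMI. These 3 held 20 of the 51 Klra5 UMIs of control total 1 and 15 of the 36 of control total 2. Among all control NK cells, 22 of 192 and 22 of 210 had 1 Cd3 UMI. The share with a Trac, Trbc1 or Trbc2 UMI was not counted over all NK cells, so the 9 have no base to be read against. NKT-like cells held Klra5 at 30.6, 31.8, 44.2 and 3.28 CPM, of which only the last was low. DESeq2 did not call Klra5 (adjusted p = 1). With no Cd3 or B cell UMI allowed, Klra5 kept 30 UMIs from 4 cells in control total 1 and 2 UMIs from 1 cell in control total 2. Both cKO libraries then had 0, and these were too few UMIs to be tested.

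The titles put 1 control and 1 cKO library under each batch number, and with the batch as a replicate block the same comparison called 13 of 7877 genes, or 0.165%. Klra5 was 1 of the 13, with a log2 fold change of −3.74 ± 0.49. Il7r, the receptor for the survival cytokine IL-7, stood at 258 and 194 CPM in control and 137 and 115 CPM in cKO NK cells, without overlap (−0.80 ± 0.17 with the block, adjusted p = 0.0102). Ltb, lymphotoxin β, stood at 133 and 208 CPM against 84.6 and 108 CPM (−0.76 ± 0.18, adjusted p = 0.0367), and the change without the block went from −0.78 to −0.38 when control total 2 was left out. The chemokine gene Ccl3 stood at 216 and 811 CPM against 151 and 431 CPM, lower in cKO in each batch while the groups overlapped (−0.70 ± 0.15, adjusted p = 0.0197). Without the block its change turned to 0.53 when control total 2 was left out and was −0.17 without cKO total 1. Kdm2b, Fgl2, AI506816, Gm47283 and Hbb-bs were the other genes called lower. Of Hbb-bs, a haemoglobin gene, 88.4% of the UMIs of control total 2 came from 1 cell. Cox6a2, Lgals3, Ighg1 and AY036118 were called higher. Cox6a2, a cytochrome oxidase subunit, stood at 11.8, 13.1, 28.2 and 68.5 CPM, from 3 to 8 cells a library, and its change without the block went from 1.81 to 1.04 when cKO total 2 was left out. Lgals3, the lectin galectin-3, stood at 17.6, 27.1, 37.1 and 77.0 CPM, and its change went from 1.30 to 0.66 without the same library. Ighg1, the immunoglobulin γ1 constant region, was found with 2, 0, 9 and 13 UMIs in NK cells and at 3.46, 1.77, 375 and 473 CPM in B cells of the same libraries, and the part of free B cell RNA in its count was not tested.

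Of the genes nearest to a call without the block, the 5 with the smallest unadjusted p that were higher in cKO were Ighg1 (log2 fold change 2.66), Cox6a2 (1.81), Steap3 (1.87), Lgals3 (1.30) and Tm7sf3 (1.21), none of them called. The corresponding 5 below control were Gm42722 (−1.57), Cxcr6 (−1.88), Hdac9 (−1.47), Zc3h12b (−1.84) and Lclat1 (−1.41). Cxcr6, a chemokine receptor of resident lymphocytes, was at 20.2 and 22.1 CPM in control and 5.94 and 1.71 CPM in cKO, from 9, 10, 2 and 1 cells. Xcl1, a chemokine that attracts cross-presenting dendritic cells, stood at 359, 1198, 269 and 341 CPM (log2 fold change −1.32 ± 0.50, adjusted p = 1). The change was −0.15 without control total 2 and −0.55 with no Cd3 or B cell UMI allowed. Control total 2 stood far above the other 3 for Xcl1, Ccl3 and Ccl4.

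**Figure D2:**
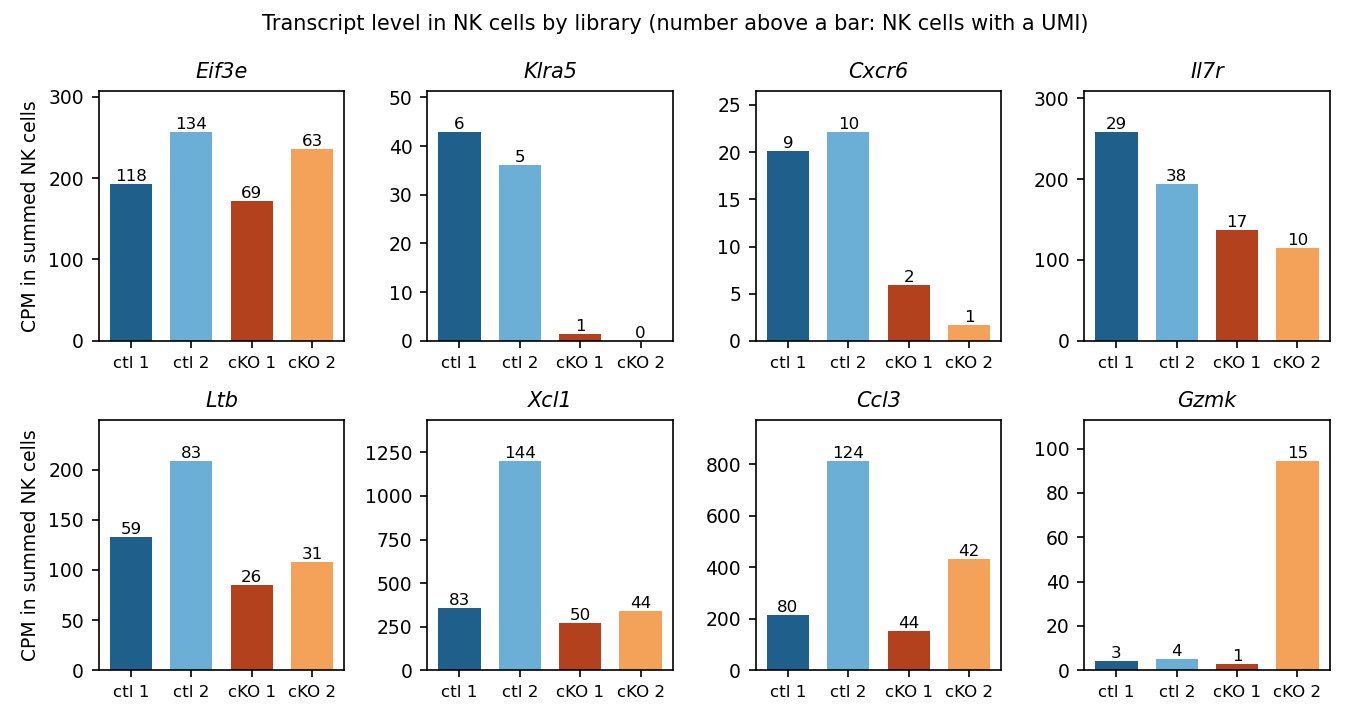
Level of 8 genes in the summed NK cells of each library (y axes, CPM, each from 0), with the number of NK cells that had a UMI above each bar. Eif3e overlaps between genotypes, Klra5, Cxcr6, Il7r and Ltb are lower in both cKO libraries, Xcl1 and Ccl3 are highest in control total 2, and Gzmk is high in cKO total 2 alone.

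The gene groups are given first without the block. Of the Ly49 genes 9 were tested and 1, Klra5, was called, with a median log2 fold change of 0.15 over the 9 beside 0.01 over all genes tested. The most abundant Ly49 genes overlapped between genotypes: Klra8, the activating Ly49H, was at 1306, 1814, 1340.2 and 1693 CPM and Klra4, the activating Ly49D, at 829, 1407, 1018 and 1409 CPM. None of 13 other lectin receptors of the NK complex, 17 activating receptors and adaptors, 15 granule genes, 7 cytokine and chemokine genes and 25 cytokine receptor and signalling genes was called without the block. Ccl5, the most abundant chemokine, stood at 7699.7, 10237, 10526 and 11239 CPM, and Gzmb, the protease granzyme B, at 254, 378, 367 and 430 CPM. The median log2 fold change was −0.52 over the 7 cytokine genes, 6 of which were below 0, and −0.34 over 12 genes of early NK maturation. It was 0.10 over 13 genes of late maturation and −0.69 over 11 genes of ILC1 (type 1 innate lymphoid cells, a class beside NK cells) and tissue residence. With the block, the calls in these groups were Ccl3 and Ltb among cytokines and Il7r and Ltb among early maturation genes. Il7r was also the call among the cytokine receptor genes and among the ILC1 and tissue residence genes, beside 0.165% called over all genes. At an unadjusted p of 0.05 with the block there were 442 of all 7877 genes. Among them were 5 of 7 cytokine genes, 7 of 12 early maturation genes and 5 of 11 ILC1 and tissue residence genes. Other groups had 5 of 20 NK transcription factors, 4 of 15 granule genes and 3 of 13 late maturation genes. Survival genes had 3 of 11, trafficking receptors 3 of 16, Ly49 genes 2 of 9 and activating receptors and adaptors 2 of 17. MHC class I genes had 2 of 14, immediate early and stress genes 2 of 17 and interferon-stimulated genes 2 of 22. Other lectin receptors had 1 of 13 and cytokine receptor and signalling genes 1 of 25. None was among 13 eIF3 subunits or 14 cell cycle genes. Markers of B, T, myeloid and erythroid cells or platelets had 2 of 10, 0 of 6, 2 of 2 and 1 of 1. The list of the next paragraph had 1 of 5. The groups share members such as Il7r and Ltb, and no group was tested as a set. Of 13 eIF3 subunits tested, 9 were above 0 and none was called. None of 22 interferon-stimulated genes, 14 MHC class I genes or 14 cell cycle genes was called.

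A list of 18 genes chosen earlier on these samples because they rose in cKO B cells was also read, and it is not independent evidence of a direction. Its summed level was 105 and 79.0 CPM in control B cells and 684 and 797 CPM in cKO B cells, but 217, 143, 168 and 217 CPM in NK cells. Of its 5 members tested in NK cells none was called, and Nfil3, a transcription factor needed for NK development, stood at 50.4, 43.2, 53.4 and 68.5 CPM.

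To compare how many NK cells carried a transcript at equal depth, each cell was thinned to 2000 UMIs, which left out 7, 9, 7 and 3 shallower cells. For 7 of 19 maturation, Ly49 and effector genes the groups did not overlap, 5 higher and 2 lower in cKO. Over all 9347 genes detected in at least 1% of thinned NK cells, 26.8% did not overlap, 13.3% higher and 13.5% lower. Klra9, the inhibitory Ly49I, was found in 30.3%, 37.3%, 42.4% and 50.5% of cells, and Klra3, Ly49C, in 21.1%, 24.9%, 26.5% and 34.0%. Without thinning, Klra9 was found in 41.7%, 46.2%, 53.96% and 56% of cells. With cells thinned to 1000 UMIs cKO was higher in each batch for both genes but the groups overlapped, at 24.1%, 30.95%, 28.3% and 37.8% for Klra9 and 14.1%, 19.0%, 16.7% and 26.5% for Klra3. Klrk1, the activating receptor NKG2D, was found in 88.6%, 88.1%, 90.9% and 94.8%, and its groups overlapped at 1000 UMIs with 65.4%, 76.7%, 71.7% and 70.4%. Gzmb was found in 34.1%, 36.3%, 41.7% and 37.1%. Among the 7, only for Gzmb did the groups stay apart in every other setting. Its values were 21.99%, 22.9%, 34.8% and 29.6% at 1000 UMIs and 53.1%, 49.5%, 60.4% and 57% without thinning. With no Cd3 or B cell UMI allowed they were nearly level, at 38.97%, 37.8%, 39.4% and 39.7%. The difference of means there was 1.18 percentage points, against 9.76 at 1000 UMIs. Klra1, Ly49A, was found in 5.95%, 12.9%, 14.4% and 13.4%, and its groups overlapped at 1000 UMIs. Ccl3 was found in 26.5%, 41.8%, 21.2% and 24.7% and Cxcr6 in 3.24%, 2.49%, 0.758% and 0%. The groups overlapped for Ccl3 at 1000 UMIs and without thinning, and for Cxcr6 with no Cd3 or B cell UMI allowed. Ccl5 was found in at least 97.9% of cells in every library. Outside the 7, some genes were apart in other settings only. With no Cd3 or B cell UMI allowed, Klra8 was lower in cKO, at 57.4%, 68.5%, 45.2% and 55.9%. So was Klra7, at 40.4%, 41.7%, 31.7% and 39.7%. Itgam was higher at 1000 UMIs, and Ccl5 without thinning and with no Cd3 or B cell UMI allowed. That gate left 8 of the 19 apart, 5 higher and 3 lower, and the share over all genes was not counted there. No exact permutation p was below 0.33, the smallest possible, and the smallest adjusted p over the 19 genes was 0.905, or 0.792 with no Cd3 or B cell UMI allowed. In B cells thinned alike, each of these 19 genes was found in at most 1.94% of cells.

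**Figure D3:**
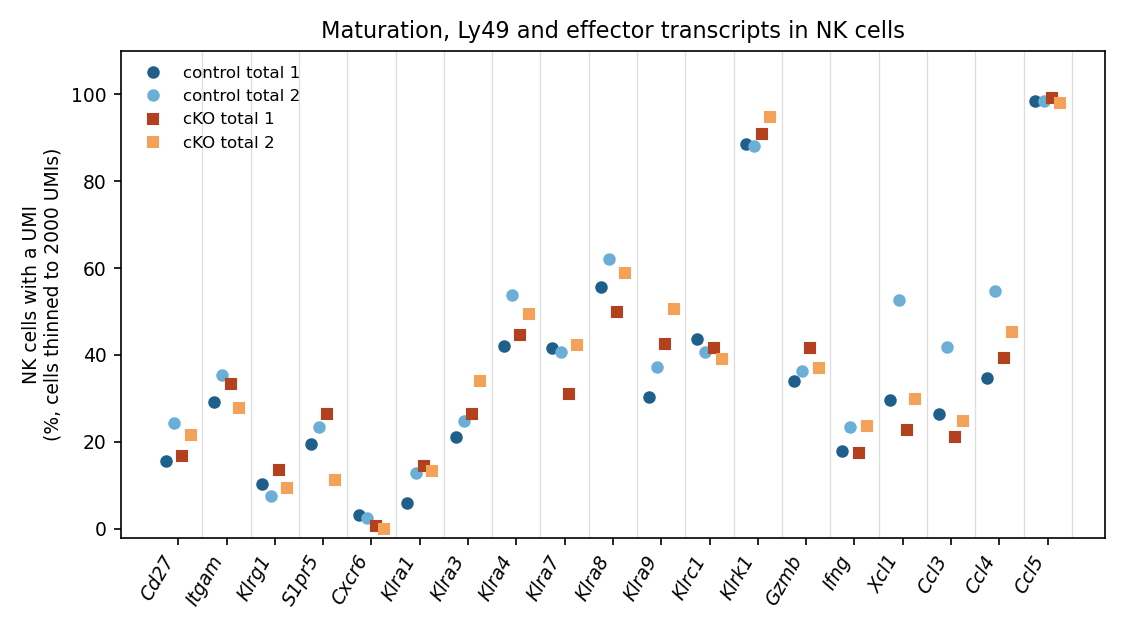
Share of NK cells with a UMI of 19 genes after thinning each cell to 2000 UMIs (y axis, percent), with 1 point per library, circles for control and squares for cKO. Klra9 runs from 30.3% to 50.5% with both cKO libraries on top, while Cd27, Itgam, Klra4, Klra8 and Ifng overlap between genotypes.

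Ly49 receptors are switched on gene by gene, so that single NK cells carry different sets. Among 615 thinned cells, 86 had no UMI of Klra1, Klra3, Klra4, Klra7, Klra8 or Klra9, 90 had 1 of the 6, 164 had 2, 184 had 3, 78 had 4, 13 had 5 and 0 had all 6. The mean number per cell was 1.97, 2.32, 2.09 and 2.48, higher in cKO in each batch but overlapping between the groups, and 51 of 63 possible combinations were seen. Cells with both Klra4 and Klra8 made up 34.3% on average, above the 27.1% that the product of their shares gives, in 4 of 4 libraries. Klra1 and Klra3 were found together in 1.66% of cells where the product gives 3.21%, below it in 4 of 4 libraries, and Klra4 with Klra9 in 16.2% against 19.2%. These values are descriptions with no test, and near-identical copies can share reads. In the last 500 bases of the longest GENCODE vM21 transcript, 42.4% of the 50-base words of Klra3, 40.8% of those of Klra9 and 40.6% of those of Klra10 also occur in another Klra gene, against 0% for Klra5, Klra6 and Klra7. Levels of Klra3, Klra9 and Klra10 are therefore uncertain between these genes. The share was 13.1% for Klra8, 5.76% for Klra1 and 4.66% for Klra4, so shared reads can enter their levels and pairs as well.

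The maturation axis was read by comparing, in each library, NK cells with an Itgam UMI and no Cd27 UMI with NK cells with a Cd27 UMI and no Itgam UMI. There were 68, 68, 50 and 30 Itgam-only cells and 42, 63, 21 and 25 Cd27-only cells, 112 cells with both and 162 with neither. Itgam-only cells were 35.4%, 32.4%, 35.97% and 30% of NK cells, and Cd27-only cells 21.9%, 30%, 15.1% and 25%, with overlapping genotypes. Cd27-only cells were deeper, with median UMIs of 5517 to 6986 against 3863 to 5182. Since both genes were read in the same cells that were then compared, the test speaks of the spread between libraries.

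Of 5369 genes tested, 487 were called between the subsets, or 9.07%, 176 higher and 311 lower in Itgam-only cells. All 12 genes of late NK maturation that were tested were higher in Itgam-only cells, with a median log2 fold change of 1.52 beside −0.0050 over all genes. Cx3cr1, a chemokine receptor of patrolling cells, stood at 116, 50.5, 64.0 and 23.5 CPM in Itgam-only and 6.24, 0, 0 and 5.09 CPM in Cd27-only cells (2.75 ± 0.37, adjusted p = 1.6e-06). Klrg1, an inhibitory receptor of mature NK cells, stood at 132, 90.2, 128 and 86.1 CPM against 9.36, 13.9, 16.4 and 15.3 CPM (2.41 ± 0.28, adjusted p = 1.4e-07). Both genes were higher in Itgam-only cells in every library, with no overlap. Zeb2, a transcription factor of terminal NK maturation, rose by 1.54 ± 0.12, Gzmb by 2.03 ± 0.17, the mast cell protease gene Cma1 by 2.43 ± 0.22, Ly6c2 by 2.11 ± 0.20, and S1pr5, the receptor NK cells use to leave tissues, by 1.504 ± 0.23, all on the log2 scale. Among Ly49 genes 3 of 9 were called and all were higher: Klra9 (2.11 ± 0.17), Klra8 (0.84 ± 0.10) and Klra3 (0.61 ± 0.16), of which Klra3 was not called by DESeq2 or without control total 2. Ccl5 was higher by 0.65 ± 0.06 and Tbx21 by 0.91 ± 0.14.

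In the other direction, 7 of 11 early maturation genes were lower in Itgam-only cells, with a median of −1.56. Emb, which encodes the adhesion protein embigin, stood at 251, 328, 192 and 149 CPM in Itgam-only and 989, 719, 1226 and 570.2 CPM in Cd27-only cells (−1.90 ± 0.16, adjusted p = 7.1e-09). Ltb fell by 1.92 ± 0.24, Tcf7, the transcription factor TCF1, by 1.56 ± 0.22, Kit, the stem cell factor receptor, by 1.84 ± 0.28 and Cd7 by 1.54 ± 0.16. Il7r and Xcl1 were not called, at 51.7, 177, 13.7 and 23.5 CPM for Il7r in Itgam-only cells against 378, 258, 370 and 219 CPM. Further genes lower in Itgam-only cells were Tcrg-C4, a T cell receptor γ constant region at 62.4, 58.3, 57.6 and 122 CPM in Cd27-only cells and 0 UMIs in Itgam-only cells of any library, Inpp4b (−2.71 ± 0.27), Cd160 (−2.23 ± 0.20) and the transcription factors Tox (−1.47 ± 0.14) and Ikzf2 (−1.87 ± 0.24). Of 7 ILC1 and tissue residence genes tested, 4 were lower and none higher. Among them was Tnfsf10, the death ligand TRAIL (−1.83 ± 0.50, adjusted p = 0.0143), a call DESeq2 did not make.

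**Figure D4:**
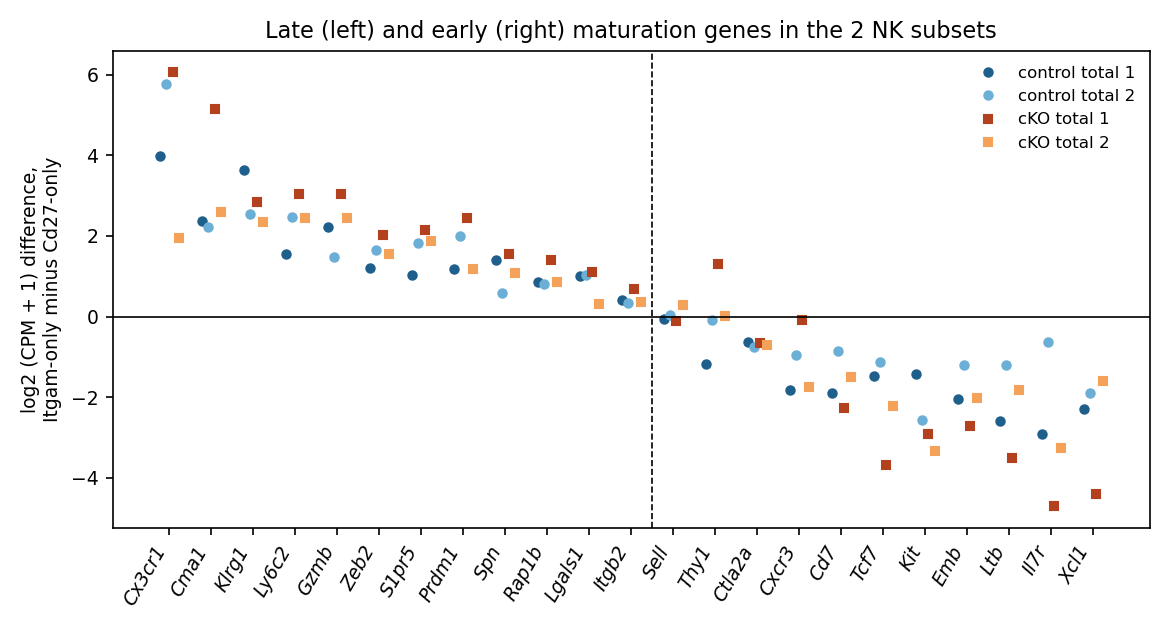
Difference between Itgam-only and Cd27-only NK cells for late (left of the dashed line) and early (right) maturation genes (y axis, log2 of TMM-scaled CPM + 1), with 1 point per library. All late genes lie above 0 in every library, and Emb, Ltb, Tcf7 and Kit lie below 0 in every library, in control and cKO alike.

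NK cells were then set beside CD8 T cells of the same libraries (1012, 1133, 747 and 685 cells), the killer cells of the adaptive system, with genes of either gate left out of the test. The classes were chosen by their transcripts, so the test again concerns the spread between libraries. Of 11350 genes, 4447 were called (39.2%), 2102 higher and 2345 lower in NK cells. Klrb1b, an inhibitory lectin receptor, stood at 589.6, 545, 576 and 392 CPM in NK cells and at no more than 0.245 CPM in CD8 T cells. Klri2, Klrb1a, Clnk (a signalling adaptor), Styk1 and Angpt1 had log2 fold changes from 7.18 to 8.93. All 9 Ly49 genes tested, 11 of 13 other lectin receptors and 12 of 17 granule genes were higher in NK cells. Of the 9, Klra8 lost its call without a filter on low counts and without control total 1, control total 2 or cKO total 1. Fcer1g was at 1563, 2401, 1785 and 2131 CPM against 6.28 to 26.999 CPM, and Serpinb9, which shields cells from granzyme B, at 548 to 727 CPM against 21.6 to 27.5 CPM. Ccl3 was at 151 to 811 CPM against 0.814 to 6.49 CPM, and the transcription factors Zeb2 (5.603 ± 0.51), Irf8 (4.57 ± 0.24) and Id2 (2.68 ± 0.11) were higher as well.

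Genes lower in NK cells than in CD8 T cells included Themis, a T cell receptor signalling protein (−7.80 ± 0.22), Dapl1 (−6.93 ± 0.21), the lymph node homing receptor Ccr7 (−5.67 ± 0.20) and the transcription factor Lef1 (−2.88 ± 0.12). Of 35 interferon-stimulated genes, 21 were lower and 4 higher, with a median of −1.003 beside −0.04 over all genes. Ifi27l2a stood at 16.0, 9.04, 17.8 and 6.85 CPM in NK cells against 186, 186, 280.1 and 304 CPM in CD8 T cells. Of 13 eIF3 subunits, 11 were lower and none higher in NK cells (median −0.57), with Eif3e at 192, 256, 172 and 236 CPM against 329, 373, 308 and 357 CPM (−0.96 ± 0.09, adjusted p = 2.5e-08).

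Against NKT-like cells (53, 66, 46 and 62 cells), the class that differs by its Cd3 UMIs alone, 1629 of 7894 genes were called (20.6%), 748 higher and 881 lower in NK cells. Cma1 (3.63 ± 0.32), Itgam (3.47 ± 0.20), Klra4 (3.19 ± 0.42) and Zeb2 (2.79 ± 0.13) were higher in NK cells, and 11 of 13 late maturation genes were. The call of Klra4 was lost without control total 2 (3.07). Itgam stood at 194, 189, 245 and 149 CPM in NK cells against 8.85 to 20.6 CPM. The T cell genes Cd40lg (−5.62 ± 0.24), Themis (−5.30 ± 0.22) and Trac (−4.32 ± 0.16) were lower, as were Tcrg-C2 (−4.12 ± 0.28), Cxcr6 (−3.39 ± 0.23) and Il7r (−2.31 ± 0.12). The classes were split by Cd3 UMIs, which T cell genes accompany, so the lower level of T cell genes is no separate evidence. Cell cycle genes were lower in NK cells for 12 of 18 and higher for none, with Mcm3, part of the replicative helicase, at 31.9, 19.1, 29.7 and 47.9 CPM against 84.3, 97.3, 56.0 and 103 CPM.

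Whether the genotype effect in NK cells differed from that in CD8 T cells was tested as an interaction, which called 37 of 11350 genes (0.326%), 5 with a higher and 32 with a lower log2 change in NK cells. For 34 of the 37 the change from control to cKO was larger in CD8 T cells than in NK cells. The changes in the 2 classes had opposite signs for 26 of the 37. On the TMM scale of the test the groups did not overlap for 33 of the 37 in CD8 T cells and for 7 in NK cells. The 37 were chosen on these same values, so these counts are no separate evidence. The share of genes without overlap was not counted over all 11350. Maf, a transcription factor, stood at 52.9, 52.3, 51.9 and 54.8 CPM in NK cells and at 1.74, 1.47, 17.5 and 21.4 CPM in CD8 T cells (difference −3.21 ± 0.34, adjusted p = 4.9e-05). Klra8 was at 0.582, 0.982, 16.7 and 44.2 CPM in CD8 T cells, a small part of its level in NK cells (−4.56 ± 0.37). Il18r1, a chain of the IL-18 receptor, was at 686, 763, 935 and 499.8 CPM in NK cells and 113, 135, 49.0 and 33.8 CPM in CD8 T cells (1.53 ± 0.15, adjusted p = 2.6e-05). On that scale the cKO and control libraries overlapped in NK cells and were apart in CD8 T cells for all 3 of these genes.

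The 3 interaction genes with the larger change in NK cells were Xcl1 (−1.76 ± 0.16), Gpr183 (−1.13 ± 0.23) and S100a8 (−5.35 ± 0.71). Gpr183, a receptor for oxysterols that guides lymphocytes in the spleen, was at 57.1, 68.3, 35.6 and 37.7 CPM in NK cells and at 230.4, 286, 324 and 347 CPM in CD8 T cells, lower in both cKO libraries in the former and higher in the latter. Its interaction was not called by DESeq2 or without control total 1. S100a8, a neutrophil protein, had 25, 1, 1 and 0 UMIs in NK cells, 68% of those in control total 1 from 1 cell, and the interaction was not called without control total 1 or without cKO total 1. Cxcr3, the receptor for interferon-induced chemokines, was at 69.7, 91.4, 41.6 and 54.8 CPM in NK cells and 23.6, 42.8, 62.1 and 78.1 CPM in CD8 T cells, lower in cKO in the former and higher in the latter with no overlap in either (−1.82 ± 0.25, adjusted p = 0.000923).

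**Figure D5:**
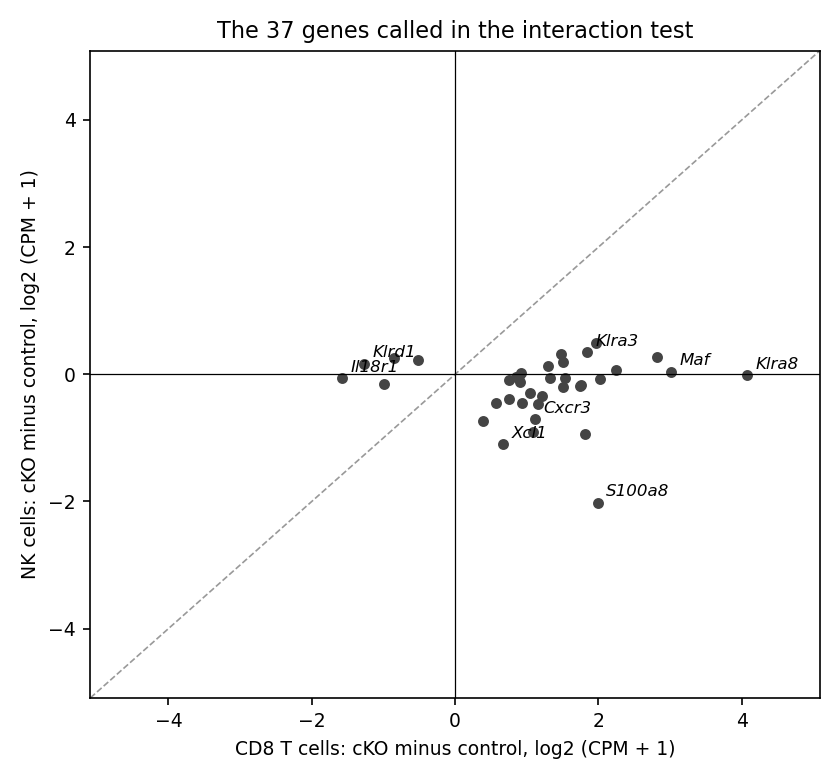
Change from control to cKO in CD8 T cells (x axis) and in NK cells (y axis) for the 37 genes called in the interaction test, both as differences of the mean log2 of TMM-scaled CPM + 1, with a dashed line where both changes are equal. Most points lie near 0 on the y axis and away from 0 on the x axis, and Xcl1 and S100a8 lie lowest for NK cells.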

How the data were processed

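Droplet 3′ libraries (SeekOne DD) were deposited as whole-number UMI counts per gene and cell, which the authors left without normalization. Per the labels, the processing notes name the builds GRCm38 and mm10. Aligner and counter were not named in these sources. For their own clusters the authors merged replicates and used Seurat and Harmony, and these clusters were not used here. NK and comparison classes were set by UMI gates. NKT-like, CD8 T and B cells were gated from the same libraries. CD8 T cells had at least 2 Cd3 UMIs, at least 2 of Cd8a and Cd8b1, no Cd4, Ncr1 or Klrb1c and at most 1 of Cd79a and Ms4a1. B cells had at least 2 UMIs of Cd79a and Ms4a1 and no Cd3. The members and gene lists were chosen with earlier results of these data known.

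Counts were summed per library and class (total depth 71894780 to 88513929 UMIs per total library) and tested with edgeR 4.0.16 in R 4.3.3 (quasi-likelihood F test, TMM, filterByExpr, robust, prior count 2, Benjamini-Hochberg, threshold 0.05), with library as covariate between classes. Fold changes are log2 with SE. CPM in the text use all UMIs of a class as total. Scripts were tested on simulated data. Doublets were kept and their removal was an alternative. Titles give batch numbers shared by both genotypes. Deviations from the group means correlated at r = 0.631 between same-numbered NK sums over 5137 genes. The numbers were therefore taken to pair the samples in the fit with the block. The main genotype fit and the permutation tests did not use this pairing. Replicates differed beyond sampling noise (chi-square per degree of freedom 8.601 in control and 7.001 in cKO). Named genes were always the rule genes and Eif3e, then per comparison the 10 called genes per direction with the largest change, at least 20 CPM and no overlap (or the same sign in all 4 libraries), the 5 with the smallest p where under 5 were called, and per list up to 6 called and up to 6 most abundant members. Genes called with the block, Gzmk, Tbc1d4 and Xist were named after their values were seen. Shares used Python 3.11.15 with scipy 1.17.1. Some genes that this rule names are not reported here.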

Additional observations from a re-analysis of the deposited data

Results flagged for a closer look

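For 14 named genes the genotype effect differed between NK cells and CD8 T cells by the interaction test (edgeR's quasi-likelihood test, adjusted p under 0.05). The log2 difference, NK effect minus CD8 effect, was 1.53 for Il18r1, 1.44 for Klrd1, 1.10 for Samhd1, 0.83 for Tagln2 and 0.74 for Vim. It was −5.35 for S100a8, −4.56 for Klra8, −3.21 for Maf, −2.54 for Ifngas1, −2.23 for N4bp1, −2.09 for Entpd1, −1.93 for Dock9, −1.92 for Samd3 and −1.82 for Cxcr3. For all of these but S100a8 the larger change was in CD8 T cells.

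Cells that meet the NK rule were also present in libraries sorted for YFP+ cells, which no comparison used. They were 36 of 9276 cells in control YFP+ 1 (0.388%), 9 of 11652 in control YFP+ 2 (0.0772%) and 24 of 10133 in cKO YFP+ 1 (0.237%), each above the share that a count of 0 allows. In cKO YFP+ 2 they were 0 of 10460 cells, where 3 counts of the total would be 0.0287% and the exact 95% interval reaches 0.0353%. Their YFP transcript was not read.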

How the results depend on the processing

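The lower share of NK cells in cKO kept its direction in every alternative, with ratios of cKO to control from 0.578 to 0.658 under other gates and filters and from 0.494 to 0.694 when 1 library was left out. Of 130 results on single genes, 99 kept their direction and were called, or not called, alike in all alternatives run. These include genes never called. A missing adjusted p counted as unchanged, and fits in which a gene was not tested were left out. Between genotypes, where 1 gene was called in NK cells, the count was 2 without a filter on low counts and 13 with the replicate block. It was 0 by DESeq2 (17 genes at an unadjusted p under 0.05), 0 with the stricter gate (59) and 0 when cells with a UMI were counted in place of UMIs (80), the last chosen after seeing the data. Leaving out 1 library gave 1 to 6 calls, with Klra5 among them each time, but each such fit has a genotype with a lone library that is assumed to vary like the other group. These included Xist without cKO total 2, Gzmk and Tbc1d4 without cKO total 1, and 4 haemoglobin genes without control total 1. The block changed no named gene's call other than those given in the report. The change of Xcl1 ran from −1.96 to −0.15, that of Ltb from −1.09 to −0.38, that of Cox6a2 from 1.04 to 2.37, that of Lgals3 from 0.66 to 1.79, that of Ccl3 from −1.79 to 0.53 and that of Eif3e from −0.41 to 0.17 when 1 library was left out, with positive values for Ccl3 without control total 2 and for Eif3e without control total 2 or cKO total 1. Against CD8 T cells 2835 genes were called without a library term. Against NKT-like cells 811 were called by DESeq2 and 680 without a library term. The interaction called 133 genes without a filter, 148 with the stricter gate, 73 without doublets and 57 to 178 with 1 library left out, so its count is not stable. Itgam-only against Cd27-only cells gave 203 calls by DESeq2, 294 with the stricter gate, 65 without a library term and 289 to 404 with 1 library left out. Of the 19 detection shares 3 did not overlap when cells were thinned to 1000 UMIs, and 11 to 14 with 1 library left out, where 1 library stands for a group. Groups separate more easily by chance when 1 of them is a lone library. The share of all genes without overlap was not counted in either setting. These counts therefore have no base to be read against, and nothing is concluded from them. The causes of the shifts between settings were not tested. With 100 to 210 NK cells a library, genes found in few cells rest on single cells.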

Other observations

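Gzmk, a granule protease, stood apart in the NK cells of a single library. It was at 4.2, 5.02 and 2.97 CPM in control total 1, control total 2 and cKO total 1, from 3, 4 and 1 cells, and at 94.1 CPM in cKO total 2, from 15 of 100 cells. No cell held more than 18.2% of these 55 UMIs. Gzma was highest in the same library, at 9471 CPM, and in its CD8 T cells Gzma stood at 767 CPM against 4.17 to 63.7 CPM in the others. Tbc1d4 was at 59.9 CPM in the NK cells of cKO total 2, but 88.6% of its UMIs came from 1 cell.

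NK cells carried UMIs of T cell receptor constant regions with Cd8a and Cd4 at no more than 1.68 and 3.42 CPM. Trdc, the δ chain constant region, stood at 38.6, 88.4, 80.1 and 87.3 CPM in NK cells, from 39, 60, 37 and 31 cells, and at 6.63 to 14.2 CPM in CD8 T cells. Tcrg-C4 was at 31.9, 31.2, 17.8 and 41.1 CPM in NK cells.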
